A study of Mus musculus with 6 samples.

Results

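Of the 61307 probes on a custom mouse array, 20679 were designed against noncoding transcripts, and 8580 of these (41.5%) are described here. The members were chosen by a measured value, the mark "well above background" that the scanner software sets for each spot. A probe was selected when both arrays of at least 1 group carried the mark. The groups were GFP, LT7 and ST7, with 2 arrays each. All were labelled as NIH3T3, an established line of mouse embryonic fibroblasts. GFP cells expressed green fluorescent protein alone and were the control. LT7 cells, long in shape, and ST7 cells, small in shape, were labelled as overexpressing SIRT7, a nucleolar deacetylase, as a fusion with GFP delivered by a retrovirus (vector pCX4Neo). LT7 and ST7 were picked with cloning cylinders from the same confluent SIRT7 culture and each was expanded from a single-cell clone, so that clone and cell shape cannot be told apart. The replicates came from different passages, and total RNA was measured. The comparisons with GFP ask which transcripts differ in the long and in the small cells.

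Noncoding transcripts are RNAs with no apparent protein product. Long ones are often spliced and polyadenylated like messenger RNAs, and many are transcribed from the strand opposite to a gene or from its promoter. They are known for carrying more repeated sequence than coding exons do. In the mouse the most common short repeats in transcripts are the SINEs, short elements copied through RNA. B1 elements descend from 7SL RNA, the RNA of the signal recognition particle, and B2 elements from a transfer RNA. Both are rodent elements. Alu is the corresponding family of primates, and like B1 it descends from 7SL RNA. Runs of short units such as TG or GA are a further class of repeat.

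The labels and the arrays disagreed for ST7. The brighter Sirt7 probe gave a signal of 3125 and 2480 for GFP, 3633 and 2782 for LT7, and 2.85 and 3.28 for ST7, below the mark on both arrays. The LT7 signals overlapped those of GFP, so this probe showed no overexpression in either line. The authors' immunoblots showed the fusion protein in both lines, with no significant difference between them. Whether this probe reads the introduced SIRT7 is not given in the sources used here, and ST7 below stands for the arrays so labelled. The identity of the RNA on these arrays (its line or species) was not tested, and every ST7 value below is read with that limit. All 10 fibroblast markers examined were detected on every GFP and LT7 array, against 4 on both arrays labelled ST7, where Dcn, Lum, Thy1, Pdgfrb, Fn1 and Col3a1 were not. Of 10 epithelial markers 3, 2 and 4 were detected in GFP, LT7 and ST7, with a summed signal of 142 to 233, 171 to 221 and 2038 to 2228. Krt18 reached 1881 and 1755 in ST7 and made up most of that sum, while Cdh1 stayed below background in all groups. The list was divided. Epcam reached 86.7 and 94.0 and Dsp 178 and 104 in ST7, both undetected in GFP. Krt8 went the other way, from 123 and 62.2 in GFP to 15.3 and 5.82 in ST7, as did Krt7, from 33.1 and 21.5 to 9.83 and 9.27. Of 9 macrophage markers 4, 4 and 1 were detected, with a summed signal of 1103 to 1317, 707 to 767 and 87.5 to 164. The 75th percentile of the signal was 317 to 384 in GFP and LT7, and 16.3 and 17.1 in ST7. Dividing by it therefore lifts every ST7 value, and each ST7 result is given before scaling and after it. The part that the makeup of the cells or the amount of RNA has in the results was not tested, and fewer transcribing cells and less RNA per cell cannot be told apart. LT7 replicate 1 was read alone in the second of 2 scans.

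The sequences that ran through the brightest members were short. Each probe is 60 letters long and carries the letters of its transcript. Words of 16 letters shared by many members were sought, with every letter required at least 2 times, and followed with their reverse complements. A choice of them is given with the number of members that held each. Capitals mark the shared letters. The first 4 lines belong to B1 and the next 3 to B2, as known from the consensus of these families, and the last 4 are runs of simple units. The assignment rests on these letters alone.
B1, in 9 members: AGGCCAGCCTGGTCTA
B1, in 6 members: AGTTCCAGGACAGCCA
B1 reverse complement, in 37 members: TGGCTGTCCTGGAACT
B1 reverse complement, in 26 members: GACAGGGTTTCTCTGT
B2, in 8 members: GCTCACAACCATCTGT
B2, in 4 members: TGGAGAGATGGCTCAG
B2 reverse complement, in 5 members: ACAGATGGTTGTGAGC
TG run, in 65 members: TGTGTGTGTGTGTGTGTGTG
CA run, in 54 members: CACACACACACACACACACA
TC run, in 24 members: TCTCTCTCTCTCTCTCTCTC
GA run, in 21 members: GAGAGAGAGAGAGAGAGAGA
No NM_ probe, that is none of the 28369 probes with a RefSeq accession of a protein-coding transcript, held any of these words. The most frequent, the TG run, was held by 0.314% of all noncoding probes.

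Far fewer noncoding than NM_ probes were detected in GFP and LT7, while on ST7 the shares met. Both arrays were marked for 8139 noncoding probes (39.4%) in GFP, 5885 (28.5%) in LT7 and 4593 (22.2%) in ST7. For NM_ probes the counts were 18121 (63.9%), 16274 (57.4%) and 6627 (23.4%). On single arrays the noncoding share was 47.5% and 40.8% for GFP, 32.9% and 33.2% for LT7, and 26.8% and 25.8% for ST7. The NM_ share was 67.2% and 64.8% on the GFP arrays and 26.6% and 26.1% on the ST7 arrays. These shares chose the members and carry no test.

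**Figure D1:**
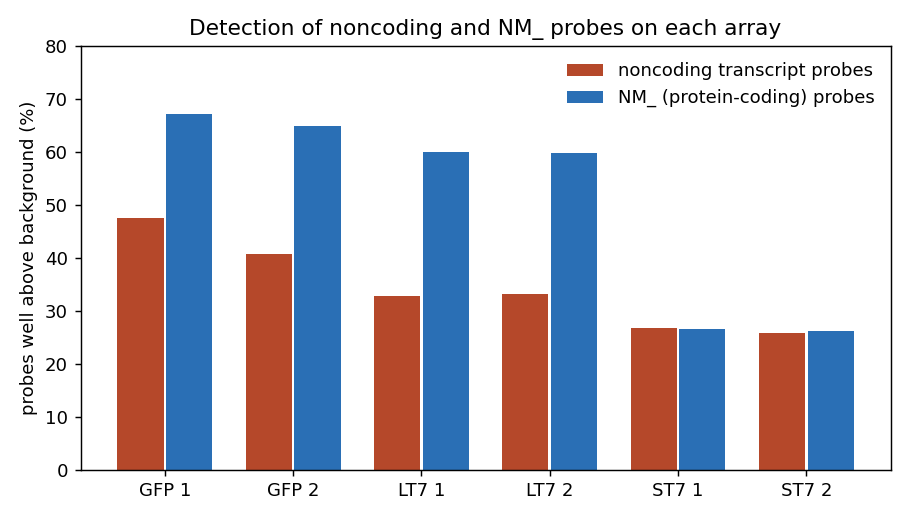
Share of probes well above background (%) on each of the 6 arrays, for noncoding (red) and NM_ probes (blue). The noncoding bars lie below the NM_ bars in GFP and LT7, and both stand at 25.8% to 26.8% on the ST7 arrays.

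Of the 8580 members, 3312 (38.6%) were detected in all 3 groups, 2525 (29.4%) in GFP and LT7 and 877 (10.2%) in GFP and ST7. GFP alone held 1425 (16.6%), ST7 alone 393 (4.58%), LT7 alone 37, and LT7 with ST7 11. Among detected NM_ probes the pattern of GFP and LT7 without ST7 was the most frequent, with 10650 of 18708 (56.9%). Members at the edge were dim. The 1855 members detected in exactly 1 group had a median highest signal of 32.2 (quartiles 24.2 and 49.0), while 2734 noncoding probes that missed the rule, marked on single arrays only, had a median of 22.4 (17.5 and 33.0).

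Noncoding members were dimmer than coding probes. Their median signal, over the probes detected in the group, was 96.0 and 66.5 for GFP, 139 and 132 for LT7, and 56.5 and 52.2 for ST7. Detected NM_ probes had medians of 495 and 434, 647 and 562, and 107 and 105.3. The log2 gap between the medians was -2.37 and -2.71 for GFP, -2.22 and -2.09 for LT7, and -0.92 and -1.01 for ST7, so that all 4 GFP and LT7 arrays showed a wider gap than both ST7 arrays. The brightest members were saturated nonetheless, with 59 noncoding probes saturated on both arrays in GFP, 42 in LT7 and 21 in ST7.

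A noncoding probe seen in GFP was seen again in LT7 less often than an NM_ probe, and again in ST7 more often. Of the 8139 noncoding probes detected in GFP, 71.7% were detected in LT7 and 51.5% in ST7. For the 18121 NM_ probes the shares were 89.4% and 33.6%. The lower LT7 share went with dimness. At a GFP signal of 100 to 1000, 99.1% of noncoding and 99.3% of NM_ probes were seen in LT7, and at 20 to 100 the shares were 55.7% and 64.6%. The ST7 shares kept their order in every class of GFP signal. They were 27.5% against 24.8% below 20, 47.7% against 30.9% at 20 to 100, 53.2% against 30.1% at 100 to 1000, 68.6% against 37.4% at 1000 to 10000, and 79.2% against 51.3% above 10000. Detection chose these probes, and the shares carry no test.

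**Figure D2:**
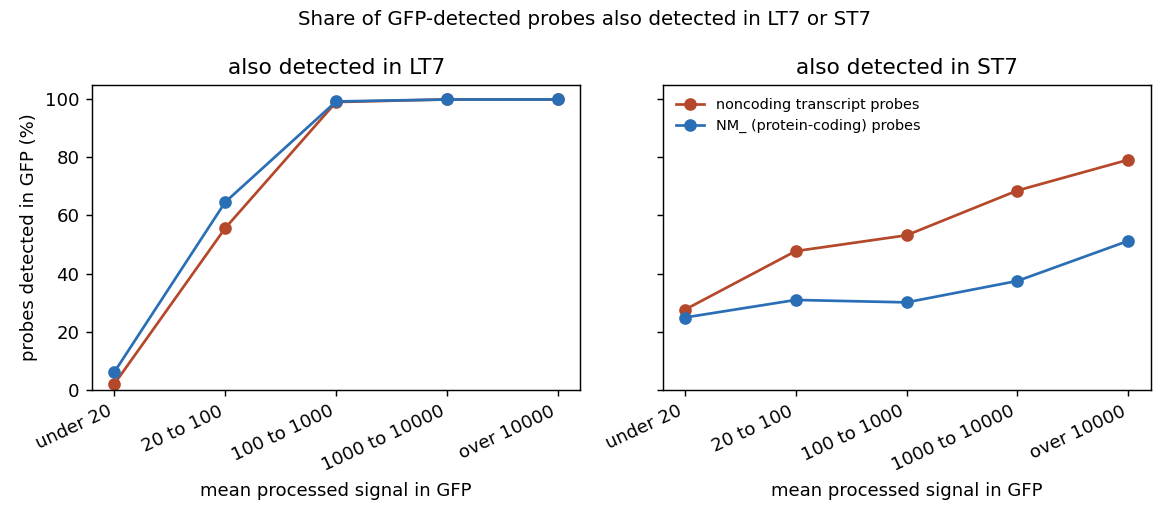
Share of probes detected in GFP that were also detected in LT7 (left) or ST7 (right), in %, by the mean processed signal in GFP. The curves of noncoding (red) and NM_ probes (blue) meet at 99% to 100% above a signal of 100 in LT7, and in ST7 the noncoding curve reaches 79.2% against 51.3%.

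Detection followed the share of G and C in the probe. Noncoding probes had 30% to 53.3% G and C, with a median of 50% among members and 43.3% among the others. In ST7, 3.50% of noncoding probes with 30% to 35% G and C and 37.5% of those with 50% or more were detected, where the shares in GFP were 14.4% and 54.0%. Within each class of G and C content the noncoding probes seen in GFP were again more often seen in ST7 than the NM_ probes, from 23.3% against 17.8% in the lowest class to 63.5% against 54.4% in the highest. The part of base composition in the ST7 values was not tested.

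The 3312 members detected on all 6 arrays allow a comparison of change in which detection does not fix the direction. Their median signal was 203 and 167 for GFP, 155 and 175 for LT7, and 85.6 and 79.4 for ST7, beside 869 and 764, 842 and 769, and 150 and 145 for the 5551 NM_ probes detected on all 6. Both ST7 arrays were lower than all others for both kinds of probe. Before scaling the median log2 change in ST7 was -0.61 for noncoding and -1.55 for NM_ probes, and after the shift to the 75th percentile it was 3.79 and 2.85. The difference between the kinds, 0.93, does not depend on such a shift. The gap between the class medians of an array was -2.14 ± 0.0675 (SD, n = 2) in GFP and -0.84 ± 0.0453 in ST7, and all ST7 arrays lay above all GFP arrays (exact two-sided permutation test over arrays, p = 0.333, the smallest that 2 against 2 allows). When NM_ probes were weighted to the GFP brightness of the noncoding probes, the difference was 0.22.

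In LT7 the median log2 change of the same members was -0.07 after the shift, against 0.06 for NM_ probes, a difference of -0.13. With spike-in scaling the medians were -2.24 and -2.11, so that the level of the change rests on the scaling and the difference does not. The gaps of the array medians, -2.29 ± 0.215 (SD, n = 2) in LT7 and -2.14 ± 0.0675 in GFP, overlapped (exact two-sided permutation test, p = 0.667). Without LT7 replicate 1, the array of the second scan, the difference was -0.01, and without LT7 replicate 2 it was -0.25.

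**Figure D3:**
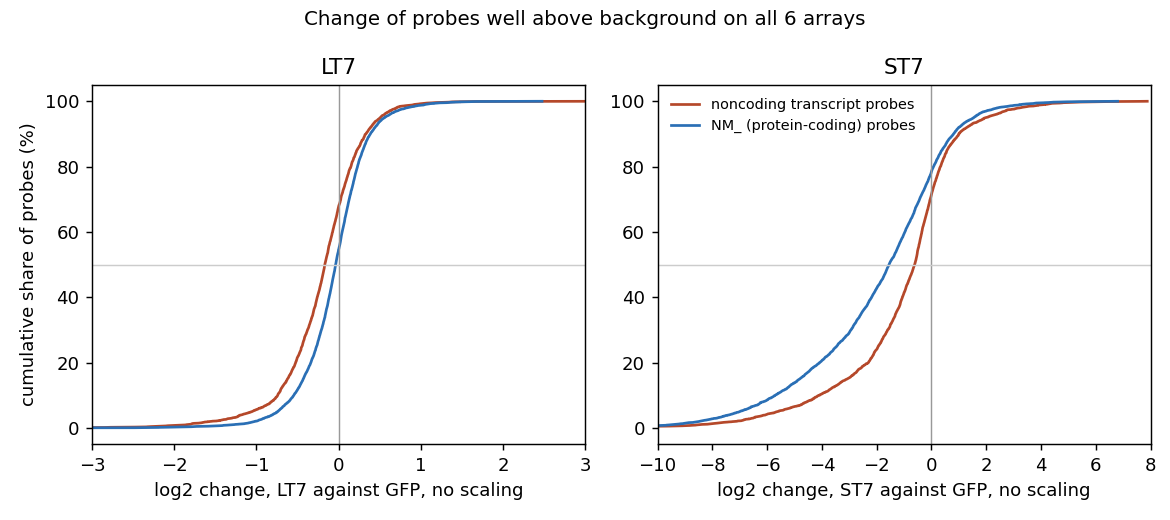
Cumulative share of probes (%) against the log2 change without scaling, in LT7 (left) and ST7 (right), for the 3312 noncoding (red) and 5551 NM_ probes (blue) well above background on all 6 arrays. The curves run close together in LT7 (medians -0.17 and -0.04), and in ST7 the noncoding curve crosses 50% at -0.61 against -1.55.

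Few single noncoding probes passed the test in LT7. Over all 20679 noncoding probes limma called 1 higher and 1 lower (adjusted p under 0.05). Of all probes, 0.044% were called higher and 0.132% lower. An unadjusted limma p under 0.05 was found for 6010 noncoding probes (29.1%), beside 27.2% of all probes and 24.5% of NM_ probes. Only 293 of the 6010 were among the 5837 noncoding probes detected in both GFP and LT7. The others were below the mark on an array of GFP or LT7, so the share does not measure how many transcripts changed. The probe called higher, u198560, had a signal of 13.2 and 11.9 for GFP, 65.2 and 50.7 for LT7, and 6.22 and 6.15 for ST7. It carried the mark on both arrays in LT7 alone and at least 4.91-fold higher than in GFP (limma, adjusted p = 0.049). The probe called lower, AK015084, had 55.8 and 44.7 for GFP, 5.14 and 4.95 for LT7, and 2.80 and 3.14 for ST7. It was seen in GFP alone and was at least 9.19-fold lower in LT7 (limma, adjusted p = 0.022). Both calls rest on detection in 1 group. Both were lost when either GFP array or either ST7 array was left out (limma, adjusted p of 0.075 to 0.27), and that of u198560 also without LT7 replicate 1 (limma, adjusted p = 0.073).

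Of the 5837 members detected in both GFP and LT7 none was called by limma. The lowest adjusted p was 0.053, and 293 had an unadjusted p under 0.05, close to the share that this threshold passes where nothing changes. Of these members, 94.2% lay within 2-fold of GFP after the shift, against 95.7% of NM_ probes detected in both groups. Both LT7 arrays lay above both GFP arrays for 722 (12.4%) and below them for 946 (16.2%), against 28.6% and 16.2% of those NM_ probes. Before scaling the counts were 490 (8.39%) and 1404 (24.1%), against 17.4% and 25.4%. With spike-in scaling they were 1 and 2350, the latter 40.3% against 50.2% of those NM_ probes, and 0.908% of the members lay within 2-fold. AK047154 stood clear of both GFP arrays without passing the test, with 799 and 561 in GFP and 3133 and 3892 in LT7 (log2 change 2.48, SE 0.34, limma adjusted p = 0.10). AK081658 had 80.6 and 19.1 in GFP and 104.8 and 479 in LT7, with the replicates far apart in both groups (SE 0.93 of a log2 change of 2.61, limma adjusted p = 0.15).

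Of the 5 members named as lowest in LT7 against GFP, 4 belonged to 1 repeat. u192188, u194856, u181094 and u181435 share the letters AAAAGAAGAAGAAGAAG, held by 5 members in all. u192188 had a signal of 4990 and 3032 for GFP, 150 and 975 for LT7, and 59.1 and 18.9 for ST7. u181435 had 3113 and 1695 for GFP, 104.5 and 685 for LT7, and 23.3 and 12.0 for ST7. LT7 replicate 1 was the lowest of the GFP and LT7 arrays for all of them, and none passed the test (limma adjusted p of 0.11 to 0.15, with a log2 change of -3.25, SE 1.05, for u192188). u194856 lies 25 bases before to 35 after the annotated start of A730063M14Rik, at chr10:127070456-127070515 on the same strand (GRCm38.p6, RefSeq). Capitals mark the letters it shares with the other probes.
u194856: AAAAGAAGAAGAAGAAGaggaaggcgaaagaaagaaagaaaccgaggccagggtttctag
Members with under 40% C and T showed the same difference between arrays. Over 160 such members detected on all 6 arrays, the median log2 difference of replicate 1 from replicate 2 was 0.96 in GFP and -0.70 in LT7, and the median change in LT7 was -0.84. Over the 350 with 70% C and T or more these values were -0.26, -0.05 and 0.16. LT7 replicate 1 was over 2-fold below replicate 2 for 668 of 5885 noncoding probes (11.4%) and 4.17% of NM_ probes. It was over 2-fold above replicate 2 for 8.97% and 2.18%, so the LT7 scatter went both ways. GFP replicate 1 was over 2-fold above replicate 2 for 14.6% and 0.900%, and below it for 2.96% and 0.215%. What sets these arrays apart was not tested.

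Some members were detected in LT7 and on neither GFP array, or the reverse. There were 12 of the first kind, of which 3 were also detected in ST7, and 1134 of the second, of which 358 were detected in ST7. These are counts among 20679 noncoding probes. The 28369 NM_ probes gave 31 of the first kind and 1024 of the second. The mark that chose the members fixes these counts, and they carry no test. The lower limits of the fold reached 40.1 for gains and 28.3 for losses, where u189809 had 363 and 63.7 in GFP and 5.01 and 4.75 in LT7. Of the 1134 losses 344 had a limit over 2-fold. The GFP arrays themselves often differed for the probes lost, as in AK006584 with 142 and 23.9 in GFP and 4.33 and 4.51 in LT7. AK045874 had closer replicates, with 197 and 105.2 in GFP and 19.1 and 13.3 in LT7, at least 8.44-fold lower.

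The 3 members detected in both LT7 and ST7 and on neither GFP array had short stretches in common with a pair of further members. Of this pair AK043141 was detected in GFP as well, and u182887 carried the mark on 1 GFP array only. AK002995 and AK043141 share the first stretch below. AK144028, AK157386 and u182887 share the second. Capitals mark the shared letters.
AK002995 and AK043141: GTGGCTCATGTCTGTAAT
AK144028, AK157386 and u182887: TTTAGTAGAGA
No other probe of the array holds either stretch. Both are close to letters of the primate Alu consensus, and the likeness is given from knowledge of that family and was scored with no repeat library. The stretches were sought among members named for their change, with the shortest length accepted set after the sequences had been read, so their values are a description with no test.

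AK002995 had a signal of 4.8 and 2.90 for GFP, 351 and 160 for LT7, and 12175 and 3952 for ST7. It was at least 40.1-fold higher in LT7 than in GFP after the shift, and in ST7 at least 1098-fold higher before scaling. AK043141 had 85.6 and 44.8 for GFP, 941 and 398 for LT7, and 24687 and 8644 for ST7, the same order of groups with no overlap. AK144028 had 12.7 and 8.40 for GFP, 127 and 180 for LT7, and 58.0 and 153 for ST7. AK157386 had 12.1 and 4.62 for GFP, 305 and 332 for LT7, and 148 and 362 for ST7. u182887 had 15.6 and 2.69 for GFP, 2052 and 1806 for LT7, and 1132 and 2447 for ST7. All 5 were higher on every LT7 and ST7 array than on both GFP arrays, and the LT7 and ST7 values of the last 3 overlapped. In LT7 none passed the test (limma adjusted p of 0.053 to 0.10), and the source of these RNAs was not tested.

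**Figure D4:**
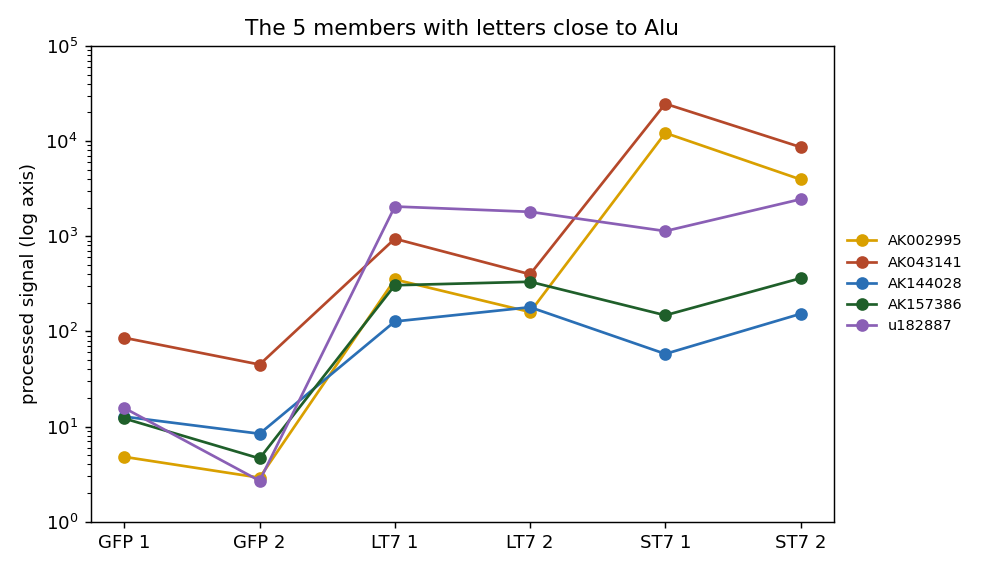
Processed signal (log axis) of the 5 members with a stretch close to Alu on each of the 6 arrays, with 1 line per probe. All lie at 2.69 to 85.6 in GFP and at 58.0 to 24687 on the LT7 and ST7 arrays.

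The B1 and B2 words had lower medians in ST7 than in GFP before scaling. The 9 members with the B1 word AGGCCAGCCTGGTCTA were saturated in GFP and LT7, with medians of 64912 and 64308 in GFP and 66784 and 65445 in LT7, against 595 and 249.2 in ST7. In all 9 both ST7 arrays lay below both GFP arrays before scaling, as they did for 53.9% of noncoding probes detected in GFP and ST7. Their ST7 signals still ranged from 102 to 20647, and all 9 were detected there. The 37 members with the reverse complement TGGCTGTCCTGGAACT had medians of 933 and 1897 for GFP, 1603 and 1656 for LT7, and 101.02 and 113 for ST7. The 8 members with the B2 word GCTCACAACCATCTGT had medians of 64919 and 62842 for GFP, 44450 and 53390 for LT7, and 5.58 and 12.3 for ST7. None of these 8 exceeded 68.6 on an ST7 array, and 3 were detected there. The 5 members with its reverse complement had 54.2 and 52.3, 91.4 and 62.5, and 2.84 and 5.04. After the shift the directions parted. The median log2 change was -3.07 for AGGCCAGCCTGGTCTA and -7.52 for GCTCACAACCATCTGT, and 0.76 for TGGCTGTCCTGGAACT and 0.29 for ACAGATGGTTGTGAGC. Where probes were saturated in GFP, as all 9 of the first word and 4 of the 8 of the second were, the size of the decrease is a lower limit.

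The runs of simple units differed among themselves. The 65 members with a TG run had medians of 28464 and 31774 for GFP, 22746 and 25974 for LT7, and 21846 and 20302 for ST7, and all 65 were detected in ST7. In all 65 both ST7 arrays lay below both GFP arrays before scaling. Lower was the common direction, with 53.9% below and 24.2% above among noncoding probes detected in GFP and ST7. Among such NM_ probes the shares were 69.0% and 19.8%. The 54 with a CA run had 15525 and 7600, 13894 and 8627, and 6137 and 4160, with both ST7 arrays below in 53. The 24 with a TC run had 6101 and 9099 for GFP, 11352 and 10883 for LT7, and 37828 and 51068 for ST7, and in 22 of them both ST7 arrays lay above both GFP arrays before scaling. The 21 with a GA run had 43583 and 17344, 8586 and 13066, and 17491 and 4781, with both ST7 arrays below in 7 and the replicates far apart in each group. The 4 with a GAA run had 43979 and 20766, 3771 and 9496, and 400.1 and 133, lower in ST7 in all 4, with a median log2 change of -7.01 before scaling and -2.61 after it. The median log2 change in ST7 was 2.42 before scaling and 6.82 after it for TC runs, and -0.46 and 3.94 for TG runs, whose direction turns with the shift. These words were picked from the members' values, and the changes carry no test.

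**Figure D5:**
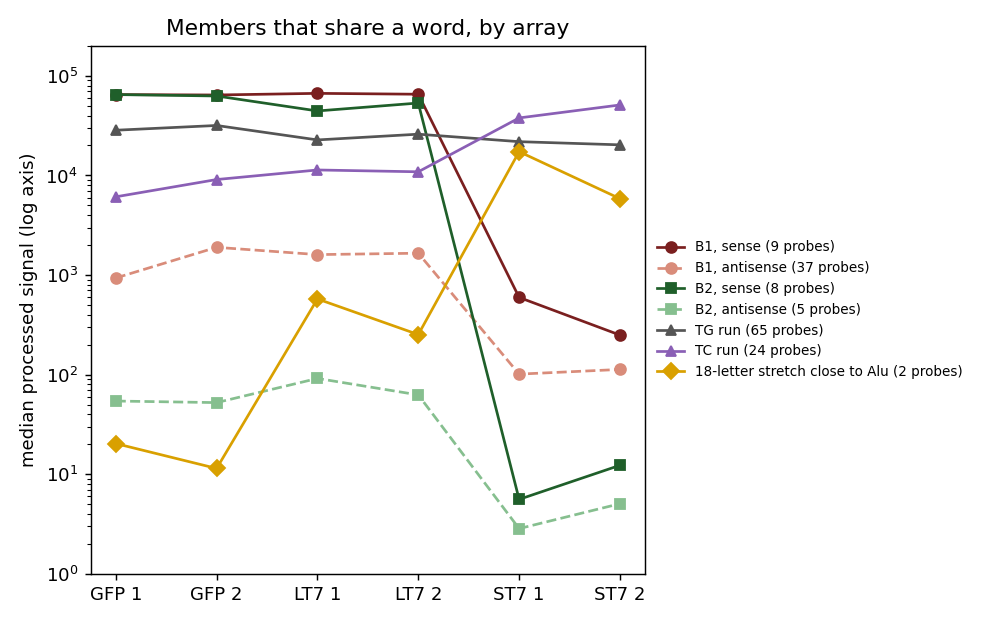
Median processed signal (log axis) on each array of the members that share a word, with the number of probes in the key. B1 and B2 go from 64912 and 64919 on the first GFP array to 595 and 5.58 on the first ST7 array, while TC runs go from 6101 to 37828.

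The members with the brightest values were of these kinds. A 16-letter word held by 5 or more probes of the array, on either strand, occurred in 6.18% of all noncoding probes and 12.7% of members, and in 70% of the 5% brightest in GFP, 75.9% in LT7 and 58.7% in ST7. For NM_ probes these shares were 1.11%, 0.887%, 4.74%, 5.16% and 4.22%. AK051252 and AK044708, both among the 5 brightest in GFP, share 31 letters of B1, printed here.
AK051252 and AK044708: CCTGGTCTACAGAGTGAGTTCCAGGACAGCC
AK051252 had a signal of 68146 and 70802 for GFP, 68618 and 69411 for LT7, and 280 and 156 for ST7. AK044708 had 73910 and 72836, 69607 and 71273, and 10.8 and 4.93. Both were saturated in GFP, where the ceiling leaves no order among the brightest probes. AK050811, saturated there too, had 73716 and 74148 for GFP, 69835 and 68794 for LT7, and 7.45 and 7.03 for ST7, below the mark on both arrays. The brightest in ST7 was AK047864, with 10788 and 12065 for GFP, 5630 and 18236 for LT7, and 74401 and 77578 for ST7. u185129 was saturated on all 6 arrays, with 63790 to 66581.

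In ST7 the calls followed the scaling. limma called 17689 of the 20679 noncoding probes higher (85.5%) and 1068 lower (5.16%) after the shift, beside 70.7% and 19.8% of all probes. Of the 17689, 11935 were detected in neither group. Among the 4189 members detected in both GFP and ST7, 3888 were called, 3714 higher and 174 lower. Of the called members, 1425 (34.0% of the 4189) had a positive change under each of 5 scalings and 174 (4.15%) a negative one, whether or not the call was kept, against 1543 (25.4%) and 734 (12.1%) of 6084 NM_ probes. All 174 members called lower kept their sign, as did all 734 NM_ probes called lower. The shift lifts ST7, so a change negative after it is also negative without scaling. Keeping the sign is therefore no check on the lower set. Before scaling 55.8% of the 4189 and 36.6% of these NM_ probes lay within 2-fold of GFP.

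Among the members higher under the 5 scalings, AK015119 had a signal of 105.4 and 115 for GFP, 77.7 and 612 for LT7, and 20257 and 22009 for ST7 (log2 change 7.58 before scaling and 11.98 after it, SE 0.98, limma adjusted p = 1.1e-04). AK016744 had 90.2 and 71.8, 148 and 286, and 12966 and 14458. AK006336 had 293 and 206, 517 and 883, and 23466 and 21162. Both ST7 arrays of each lay far above the GFP and LT7 arrays before scaling. AK028593 had 209 and 192 in GFP and 17115 and 11365 in ST7, and it shares the letters ACTCTGCAAGC with AK015119. A pair of NM_ probes holds the same 11 letters and lost its signal in ST7, with 2.85 to 8.09 there, so that these letters did not sort high from low. Among the members lower under the 5 scalings, AK051110 had 64192 and 70628 in GFP and 17 and 17.2 in ST7, and AK170660 had 64327 and 65829 and 18.9 and 17.4. AK045011 went from 64665 and 65497 to 14.3 on 1 ST7 array, while its spot on the other was marked as an outlier and left out of the fit.

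Further members were detected in GFP or in ST7 alone of these groups. On neither GFP array but on both of ST7 were 189, of which 3 were also detected in LT7, and their lower limits of the fold had a median of 3.03 before scaling and 64.0 after it. AK039060 had 6.45 and 3.34 for GFP, 22.3 and 15.9 for LT7, and 1272 and 1392 for ST7, at least 182-fold higher before scaling. AK012018 had 2.81 and 2.97, 7.91 and 15.7, and 646 and 678, at least 112-fold higher. On both GFP arrays but neither of ST7 were 3160, of which 2110 (66.8%) were also detected in LT7. Of NM_ probes, 392 were detected in ST7 and on neither GFP array. The reverse held for 10922, of which 89.3% were also detected in LT7. Detection fixes these counts, and they carry no test. Before scaling 3023 of these had a limit over 2-fold, and after the shift 858. u195980 went from 66454 and 63146 in GFP to 2.86 and 3.29, at least 19640-fold lower before scaling and 931-fold after it. It shares TCTCTTCTGGTGTGTCT, letters of B2, with u185811, which went from 63622 and 65004 to 2.96 and 3.54.

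Some members could be placed. Of the noncoding probes, 568 matched a window of 250 bases before to 50 after the start of a RefSeq gene in GRCm38.p6, 292 of them members, with 219 members opposite to a gene and 82 on its strand. Where an opposite noncoding probe and its gene were both detected on all 6 arrays, 15 of 18 pairs had the same direction in ST7 after the shift. The shift alone puts most probes on the same side, with 91.5% of noncoding and 82.1% of NM_ probes detected on all 6 arrays above 0. The count therefore cannot tell a link between probe and gene from the scaling. The probes printed next each matched at a single place. They are 5 examples picked after their values were seen, whose genes were not detected on all arrays, and do not stand for the rest. In the first 4, capitals mark the longest run of C and T. In AK138790 they mark the letters shared with u185811, which belong to B2.
AK141320, chr10:29313114-29313173, opposite to Echdc1: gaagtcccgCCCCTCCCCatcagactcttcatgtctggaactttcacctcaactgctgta
AK166309, chr15:81399964-81400023, opposite to Xpnpep3: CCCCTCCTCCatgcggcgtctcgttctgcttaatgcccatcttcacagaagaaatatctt
AK015984, chr7:141454974-141455033, opposite to Pnpla2: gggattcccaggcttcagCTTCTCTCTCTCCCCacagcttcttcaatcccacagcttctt
AK158573, chr16:70313840-70313899, opposite to Gbe1: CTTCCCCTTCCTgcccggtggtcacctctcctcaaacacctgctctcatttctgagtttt
AK138790, chr17:56008166-56008225, opposite to Stap2: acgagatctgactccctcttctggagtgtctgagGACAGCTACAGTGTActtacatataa
C and T made up 65% of AK141320 and of AK166309, 71.7% of AK015984 and 75% of AK158573, where the median of all members was 53.3%.

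AK141320 had a signal of 35943 and 33001 for GFP, 7013 and 43337 for LT7, and 65418 and 63593 for ST7. The probe of Echdc1, an enzyme that removes faulty products of fatty acid synthesis, had 388 and 374, 524 and 472, and 2.99 and 3.39. The noncoding probe was thus brighter in ST7 before scaling, while the gene on the other strand was not well above background there. AK166309 behaved alike, with 2049 and 1868, 209 and 2341, and 27478 and 25021, beside 87.6 and 63.8, 40.0 and 85.5, and 2.87 and 3.26 for Xpnpep3, a mitochondrial aminopeptidase. AK015984 had 295 and 319, 267 and 473, and 987 and 1572, while Pnpla2, the lipase that starts the breakdown of stored fat, went from 800 and 767 in GFP to 2.93 and 3.19 in ST7. AK158573 was dimmer with its neighbour, from 19298 and 19708 to 1741 and 1614, and Gbe1, the glycogen branching enzyme, went from 1925 and 2265 to 2.90 and 4.64. AK138790, with its B2 letters, went from 62382 and 62456 to 16.5 and 20, and Stap2, a signalling adaptor, from 98.4 and 75.2 to 10.8 and 8.80. LT7 replicate 1 was the lowest array for AK141320 and AK166309. AK158573 was dimmer in ST7 before scaling by less than the shift and brighter after it, as were SRA and GNAS1 below.

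Only 17 noncoding probes carried the name of a known RNA, and 8 of these were members. SRA, an RNA that acts with steroid receptors, had 1582 and 1402 for GFP, 1127 and 1331 for LT7, and 290 and 243 for ST7. BC1, a neuronal RNA that represses translation, was read by a pair of probes which share 58 letters and differ in 1 of them, C23A as counted from the first letter of U33851. Capitals mark it.
BC1 U33851: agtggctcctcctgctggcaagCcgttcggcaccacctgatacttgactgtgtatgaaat
BC1 u4397: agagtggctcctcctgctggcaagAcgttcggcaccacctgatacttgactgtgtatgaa
U33851 had 195 and 162 for GFP, 201 and 139 for LT7, and 307 and 294 for ST7, and u4397 had 153 and 132, 98 and 150, and 280 and 284. Both gave the same order, with ST7 above GFP before scaling. The RefSeq gene Bc1 lies at chr7:144914470-144914623. One GNAS1 probe, for the antisense RNA of the imprinted Gnas cluster, had 361 and 376, 341 and 331, and 278 and 282, and a second one was not detected on any array. The snoRNA probe X63743 had 78.9 and 41.9, 61.0 and 64.2, and 60.7 and 32.3, within the spread of the GFP arrays or below it. Of the small RNAs named snmRNA, AF357499 had 27.7 and 40.6, 19.3 and 28.4, and 6.003 and 8.74, and AF357473 had 13.9 and 9.01, 5.24 and 9.44, and 24.9 and 18.4. The 9 named probes that were no members carried the mark on no array.

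A list of 42 known long noncoding RNAs, read mainly by gene probes, gives a view beside the members. For 29 a probe was found, and 21 were detected in GFP, 22 in LT7 and 10 in ST7. None was called in LT7 (limma, median log2 change 0.14), while after the shift 13 were called higher and 15 lower in ST7. Of all NM_ probes, 59.2% were called higher and 30.4% lower there. Before scaling 20 lay below both GFP arrays in ST7 and 4 above, with a median log2 change of -5.05. Of NM_ probes detected in GFP and ST7, a set chosen by detection unlike the list, 69.0% lay below and 19.8% above. The median log2 change of those NM_ probes was -1.26 before scaling. As the sets are unlike, whether the counts are particular to these RNAs was not tested. Malat1 and Neat1, abundant nuclear RNAs, had 11703 and 2673 and 14879 and 5087 in GFP, and 69.9 and 30.2 and 20.1 and 31.5 in ST7. Meg3, Rian and Mirg, transcripts of 1 imprinted cluster, had 1549 and 598, 507 and 423, and 4234 and 2117 in GFP, and none exceeded 11.6 in ST7. In LT7 they had 3371 and 1665, 949 and 608, and 10170 and 6547 (limma adjusted p of 0.10 to 0.14). Snhg8, a snoRNA host, was among those above, with 2101 and 2591 for GFP, 1719 and 1753 for LT7, and 5844 and 6255 for ST7. Nespas, from the Gnas cluster, had 1241 and 1112, 455 and 1125, and 973 and 1046, with LT7 replicate 1 the lowest.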

How the data were processed

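Total RNA from 6 cultures was labelled with Cy3 after oligo-dT priming and hybridised to 6 one-colour arrays on 1 slide. The deposited intensity of each spot is the background-subtracted processed signal of the authors' Agilent Feature Extraction software, with its marks for spots well above background, saturated or outlying. The deposited log2 values of the authors' value table, shifted to the 75th percentile, served as an alternative. Here outlier spots were left out, spots of a probe were averaged as log2, and each array's 75th percentile over 61307 probes was subtracted. The groups were compared with limma 3.58.1 (R 4.3.3) in 1 fit of the 6 arrays. P-values were adjusted over the whole table by Benjamini-Hochberg, with a threshold of 0.05. Tests were checked on simulated data. A probe detected on both arrays of 1 group and neither of the other received a lower limit of the fold. It sets the brighter mean against the higher of the dim probe's own value and the lowest value well above background on each array. The authors' fold rule, other scalings, normexp and leaving out arrays were alternatives.

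Members and lists were chosen with earlier results of these data known. Named probes were the 5 brightest per group, the 5 largest non-overlapping changes each way in LT7, the 5 highest limits per group and direction, the 5 largest ST7 changes each way among calls that kept their sign under 5 scalings, and the listed RNAs. Repeat words, placed probes and u182887 were picked afterwards. No genome was used. Probes were placed by an exact match to RefSeq promoter windows (GRCm38.p6), and the design gave no coordinates for the 20679 noncoding probes. The number of arrays limits the precision, and p-values cover the spread between passages of a clone. Of the members that carry an RNA name, 1 is not reported here.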

Additional observations from a re-analysis of the deposited data

How the results depend on the processing

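The numbers of called probes depend on the processing more than the class differences do. For LT7 against GFP the 2 calls among noncoding probes became 1 with the percentile set on detected probes, without scaling or with the authors' values, and 0 with quantile normalization, spike-in scaling, the replicate block or the fit on 4 arrays. They became 34 with normexp, 22 when dim probes were left out before testing and 1280 with the fold rule of the methods. Leaving out single arrays gave 0 to 214, with 103 without LT7 replicate 1 and 214 without LT7 replicate 2, where the lone array is assumed to vary like the others. The replicate block takes samples of the same number as pairs, which the labels do not state. The deviations correlated at 0.33 between GFP and ST7, 0.09 between GFP and LT7, and -0.03 between LT7 and ST7. Whether the numbers pair the samples is not settled by these values, so that the block is no test of pairing. For ST7 against GFP the 18757 calls became 10113 with quantile normalization (81.3% higher), 6033 without scaling (14.3% higher), 1664 with spike-in scaling (2.95% higher) and 6865 without dim probes. The share higher was 94.3% after the shift and 86.6% with the percentile set on detected probes. Single arrays left out gave 17770 to 18907. The share of noncoding probes detected was 66.7% with the weaker mark of significance, and 42.6% to 48.7% without single arrays, the highest without GFP replicate 2. Without an array its group needed the mark on the remaining array alone, so this share could only rise. The log2 brightness gap to NM_ probes, -1.88 over the 6 arrays, was -1.38 with normexp. The class difference in ST7 was 0.22 to 1.10 over all alternatives, lowest with NM_ probes weighted to the same GFP brightness, and in LT7 it was -0.25 to -0.01. Weighting by G and C content and leaving out shared words were chosen after seeing the data. Of the named probes 21 in LT7 and 20 in ST7 were recomputed, with no sign reversed. The ST7 probes named for keeping their sign under 5 scalings could not reverse under those scalings. For them the recomputation is no check on the scaling. The causes were not tested.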
